A study of Homo sapiens with 13 samples.

Results

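The genes described here are the protein-coding genes of human chromosome 19 whose symbol is ZNF followed by a digit. They were chosen by chromosome and symbol in the RefSeq gene table of GRCh38.p14 (the hg38 coordinates), with no measured value used, and numbered 250 of the 19974 protein-coding genes on chromosomes 1 to 22 and X. Their median length was 23.3 kb, against 24.2 kb for all protein-coding genes. The symbols of 4 of them have a hyphen. They are ZNF559-ZNF177, ZNF816-ZNF321P and ZNF765-ZNF761, named as read-through genes are, and ZNF470-DT, on the strand opposite to ZNF470. Of these 4, 1 held a peak. The assay was DRIP-seq, in which sonicated genomic DNA is precipitated with the hybrid-binding antibody S9.6 and sequenced. The cells were U2OS, a human osteosarcoma line, transfected with an siRNA against REXO4 (siREXO4), an siRNA against RNaseH1 (siRNaseH1) or a control siRNA (siCtrl). The series design asks whether REXO4 and RNaseH1 act on R-loops in the same regions.

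The 13 samples comprised 3 S9.6 libraries for each of siREXO4, siRNaseH1 and siCtrl, 1 input library for each, and 1 IgG library from siCtrl cells. The authors' peak lists, 1 per transfection, were called on the merged S9.6 libraries, so no value used here has a replicate error, and these merged lists allow no test between transfections. The single libraries were not analysed here. The lists held 12687 siREXO4, 20954 siRNaseH1 and 4458 siCtrl peaks. Read totals were not given in the sources used here, and the expected coverage recovered from the lists was 1.41, 1.36 and 1.28 fragments in the same order. Peaks measure neither transcripts nor protein, so the knockdowns and the identity of the cells could not be checked. Intervals on shares are 95% Wilson intervals, those on fragment numbers are exact Poisson intervals, and both cover counting error only.

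An R-loop is a DNA-RNA hybrid with a displaced DNA strand, formed when a transcript pairs with its template. R-loops are known from CpG-rich promoters and from the 3' ends of genes. RNaseH1 degrades the RNA of such hybrids, and REXO4 belongs to a family of predicted exonucleases. The zinc finger genes of chromosome 19 arose largely by tandem duplication and lie in clusters. Many of them encode KRAB zinc finger proteins, DNA-binding repressors that recruit TRIM28 and the histone methyltransferase SETDB1 to transposable elements. The 3' coding exons of many of these genes, which encode the zinc fingers, are themselves known to carry H3K9me3, and the copies resemble each other in sequence. The treatment of multiply mapped reads is not given in the sources used here, so peaks in such repeated exons are uncertain.

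The starts of these genes are shown first, because the peaks with the highest folds lay there. RefSeq promoters of GRCh38.p14, from 250 bases before a start to 50 after it, were matched for 219 of the 250 genes (271 promoters). Only those of ZNF146, ZNF565 and ZNF574 overlapped a siCtrl peak, and each of them also lay in peaks of both knockdowns. ZNF787 was the gene with the best-ranked pair of knockdown peaks without a siCtrl peak. ZNF132 and ZNF224 held no peak in any list and had a CpG number at the median of the promoters without a peak. The windows are ZNF146 at chr19:36214856-36215155 (plus strand), ZNF574 at chr19:42075916-42076215 (plus strand), ZNF787 at chr19:56121246-56121545 (minus strand), ZNF132 at chr19:58440104-58440403 (minus strand) and ZNF224 at chr19:44094111-44094410 (plus strand). Each is written 5' to 3' on the strand of its gene, with every CG dinucleotide in capitals.
ZNF146: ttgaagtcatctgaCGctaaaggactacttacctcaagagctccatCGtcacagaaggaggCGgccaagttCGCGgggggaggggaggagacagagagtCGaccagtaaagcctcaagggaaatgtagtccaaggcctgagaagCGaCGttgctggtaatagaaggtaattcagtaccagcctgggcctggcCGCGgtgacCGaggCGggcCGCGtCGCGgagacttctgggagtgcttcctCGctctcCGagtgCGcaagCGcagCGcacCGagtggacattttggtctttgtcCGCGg
ZNF574: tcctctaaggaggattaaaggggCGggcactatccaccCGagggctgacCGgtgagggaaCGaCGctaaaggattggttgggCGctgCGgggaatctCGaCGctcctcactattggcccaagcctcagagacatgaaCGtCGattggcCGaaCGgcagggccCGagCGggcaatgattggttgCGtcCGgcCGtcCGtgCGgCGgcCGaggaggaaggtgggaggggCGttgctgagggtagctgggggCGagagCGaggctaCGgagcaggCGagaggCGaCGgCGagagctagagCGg
ZNF787: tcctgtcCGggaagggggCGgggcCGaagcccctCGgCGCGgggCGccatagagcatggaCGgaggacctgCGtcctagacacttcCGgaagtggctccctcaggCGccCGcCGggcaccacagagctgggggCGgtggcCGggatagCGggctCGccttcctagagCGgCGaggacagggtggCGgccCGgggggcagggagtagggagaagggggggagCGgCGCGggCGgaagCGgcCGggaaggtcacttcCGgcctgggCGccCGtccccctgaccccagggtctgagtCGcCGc
ZNF132: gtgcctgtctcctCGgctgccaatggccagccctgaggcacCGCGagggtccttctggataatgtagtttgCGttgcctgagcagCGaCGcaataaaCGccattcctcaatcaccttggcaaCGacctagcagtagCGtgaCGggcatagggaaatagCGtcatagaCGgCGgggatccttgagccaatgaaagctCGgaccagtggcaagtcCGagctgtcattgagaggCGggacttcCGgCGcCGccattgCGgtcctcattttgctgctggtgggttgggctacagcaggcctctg
ZNF224: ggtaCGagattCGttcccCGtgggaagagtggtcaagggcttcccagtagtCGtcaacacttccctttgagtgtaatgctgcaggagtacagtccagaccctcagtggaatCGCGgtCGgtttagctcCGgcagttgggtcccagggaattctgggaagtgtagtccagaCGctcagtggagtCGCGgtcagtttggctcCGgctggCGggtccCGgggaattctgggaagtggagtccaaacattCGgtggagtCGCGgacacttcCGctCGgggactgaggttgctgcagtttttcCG
These windows held 24, 31, 32, 20 and 20 CG dinucleotides, in the order shown. Their GC content was 59.0%, 65.3%, 75%, 59.0% and 58.3%. The ZNF565 start lies on the opposite strand of the ZNF146 locus and its window overlaps the one printed for ZNF146.

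Most chromosome 19 ZNF genes held no peak, counting the gene and 2 kb on either side. In the siREXO4 list 56 of 250 held one (22.4%, interval 17.7 to 28.0%), where 33.7% of all protein-coding genes did. In the siRNaseH1 list 65 held one (26%, 21.0 to 31.8%), where 39.2% of all protein-coding genes did. In the siCtrl list 15 held one (6.0%, 3.67 to 9.66%), against a background of 12%. All of these shares lay below the background, and the intervals did not reach it. The lists differ in length, and with each limited to its 4458 most significant peaks the order of the knockdowns turned round, with 28 genes in siREXO4 (11.2%, all protein-coding genes 18.6%) and 19 in siRNaseH1 (7.6%, all 16.9%). The other 1201 protein-coding genes of chromosome 19, some of them zinc finger genes with other symbols, gave 43.9% in siREXO4, 45.5% in siRNaseH1 and 13.2% in siCtrl. Those of them lying within the ZNF clusters had lower knockdown shares, given with the clusters below. The 267 ZNF genes of other chromosomes gave 38.2%, 41.9% and 10.9% in the same lists. With genes of unequal length and no measure of transcription, what sets these shares was not tested.

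Per megabase the picture differed from that per gene. Over the 7.97 Mb that the chromosome 19 ZNF genes and their flanks cover, there were 10.3 siREXO4, 17.3 siRNaseH1 and 1.76 siCtrl peaks per Mb. All protein-coding genes had 7.23, 13.3 and 2.14 per Mb, and the other genes of chromosome 19 had 27.4, 38.1 and 6.41. Peaks at these genes were denser than the protein-coding average in both knockdown lists and sparser in siCtrl. They remained sparser than in the rest of the chromosome. The ZNF genes of other chromosomes had similar knockdown densities, 10.1 siREXO4 and 16.2 siRNaseH1 peaks per Mb. The higher knockdown density is therefore not particular to the ZNF genes of chromosome 19. The siCtrl density at the chromosome 19 ZNF genes rests on 14 peaks. Genes with a peak in any list were of about the same length as those without, with medians of 23.4 kb and 23.2 kb.

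By list, 166 genes (66.4%) held no peak anywhere. Of the 84 with a peak (33.6%, against 46.7% of all protein-coding genes), 16 held siREXO4 peaks alone, 26 siRNaseH1 peaks alone and 27 both without siCtrl. A further 12 genes held peaks of all 3 lists, 1 gene held siREXO4 and siCtrl peaks, and 2 genes held a siCtrl peak alone. The same split was not computed over all protein-coding genes, and the lists differ in length. The split is therefore not shown to be particular to the ZNF genes. The peaks of the 2 knockdowns met at the same position in fewer genes: in 32 genes (12.8%, 9.21 to 17.5%) a siRNaseH1 peak overlapped a siREXO4 peak, where 23.8% of all protein-coding genes had such a pair. Counted over peaks, 39 of 82 siREXO4 peaks were overlapped by a siRNaseH1 peak (47.6%, 37.1 to 58.2%), against 60.1% at all protein-coding genes. From the other side, 39 of 138 siRNaseH1 peaks were overlapped by a siREXO4 peak (28.3%, 21.4 to 36.3%), against 32.4%.

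Few of these peaks were shared with siCtrl. Of the siREXO4 peaks, 6 of 82 overlapped a siCtrl peak (7.32%, against 13% at all protein-coding genes), and of the siRNaseH1 peaks 8 of 138 did (5.80%, against 8.50%). Genes with a siREXO4 peak free of siCtrl numbered 53 (21.2%, background 31.3%) and those with such a siRNaseH1 peak 64 (25.6%, background 37.6%). Both counts use the same siCtrl list, and 28 genes (11.2%, background 20.8%) held an overlapping pair free of siCtrl. The depth of these peaks was set against that of siCtrl. The fewest fragments at any siCtrl summit was 7, and, after scaling for expected coverage, 31 of 76 siREXO4 peaks (40.8%) and 68 of 130 siRNaseH1 peaks (52.3%) free of siCtrl reached 2 times that depth. Over the whole lists the shares were 37.8% and 58%, close to those at the ZNF genes.

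**Figure D1:**
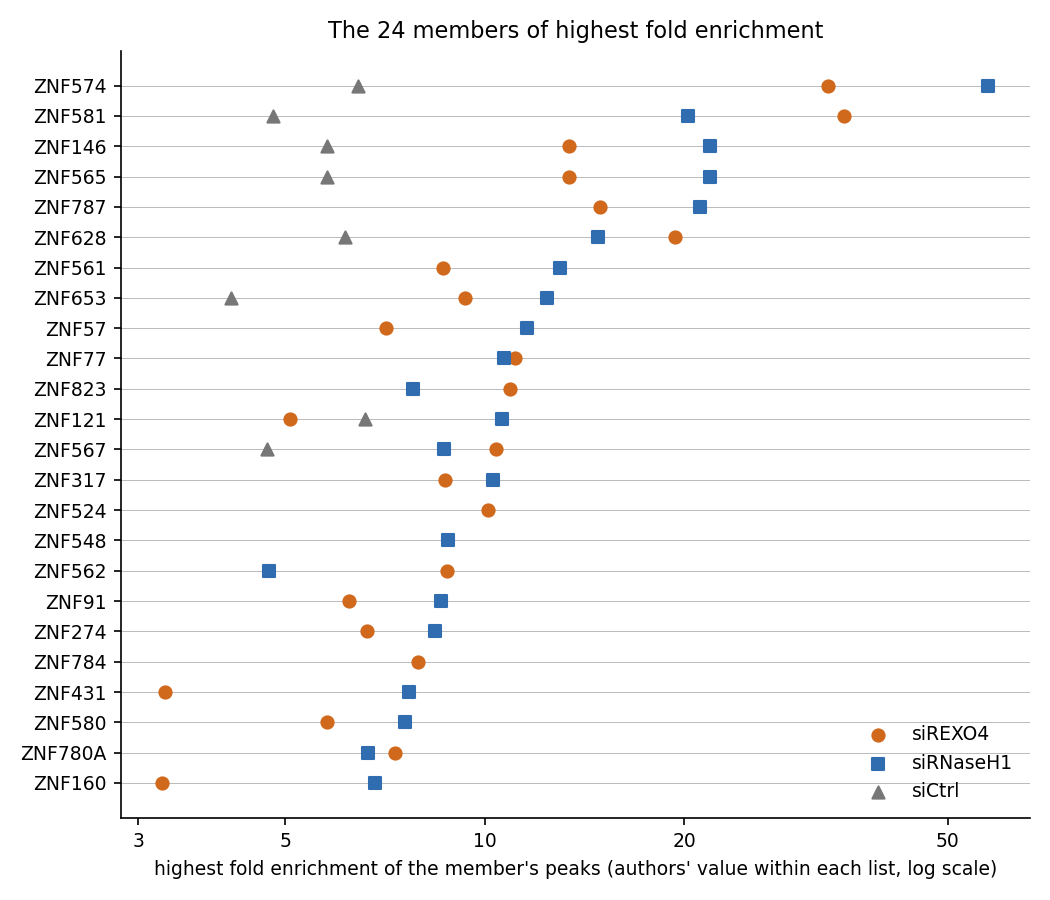
The ZNF genes of highest fold, 1 per row, with the highest fold enrichment of their peaks in each list (horizontal log axis; circles siREXO4, squares siRNaseH1, triangles siCtrl; a missing symbol means no peak). ZNF581 has the highest siREXO4 fold (34.9) and ZNF574 the highest siRNaseH1 fold (57.6), and no siCtrl fold plotted exceeds 6.59.

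The fold of a peak is the authors' ratio of signal at the summit to local background, given for its own list. Folds of different lists are set side by side as values only, and no difference between lists was computed from them. Medians were 5.24 (range 2.88 to 34.9) in siREXO4, 5.08 (2.74 to 57.6) in siRNaseH1 and 5.02 (3.71 to 6.75) in siCtrl. At all protein-coding genes they were 4.98, 5.19 and 4.83. A fold of 10 or more was found at 9 siREXO4 peaks (11.0%), 12 siRNaseH1 peaks (8.70%) and 0 siCtrl peaks, against 10.8%, 9.50% and 2.27% at all protein-coding genes. The peaks covered 43626 bp in siREXO4, 66068 bp in siRNaseH1 and 5470 bp in siCtrl, with median widths of 404, 388 and 332 bp.

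ZNF574 held the strongest siRNaseH1 peak of these genes. The gene lies outside the clusters on the plus strand, from 42068477 to 42081552. Its siREXO4 peak spanned 42075114 to 42076592 (1479 bp, fold 33.0, 140 fragments, interval 118 to 165). The siRNaseH1 peak spanned 42074883 to 42076719 (1837 bp, fold 57.6), too significant for its fragments to be recovered. The siCtrl peak spanned 42075272 to 42076201 (930 bp, fold 6.43, 34 fragments, 23.5 to 47.5). All 3 lists marked the same internal start, whose promoter is printed above, and the 2 knockdown peaks were the wider ones.

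ZNF581 held the strongest siREXO4 peak, at the 5' boundary of a gene spanning 55635003 to 55645623. The siREXO4 peak covered 1144 bp at fold 34.9 (118 fragments, 97.7 to 141), the siRNaseH1 peak 1033 bp at fold 20.3 (103 fragments, 84.1 to 125) and the siCtrl peak 330 bp at fold 4.79 (13 fragments, 6.92 to 22.2). The noncoding gene LOC107983998 overlaps this position, and ZNF581 shares its further peaks with its neighbour ZNF580. The RefSeq promoter matched for ZNF581 has its start elsewhere, at 55643649. That promoter overlapped a siREXO4 peak of fold 4.12 and no siRNaseH1 peak. ZNF628, in the same cluster, had at its start a siREXO4 peak of 1391 bp at fold 19.4 (98 fragments, 79.6 to 119), a siRNaseH1 peak of 1349 bp at fold 14.8 (51 fragments, 38 to 67.1) and a siCtrl peak of 399 bp at fold 6.16 (21 fragments, 13.0 to 32.1). At the ZNF581 5' boundary and the ZNF628 start the fragment intervals of both knockdowns lay above that of siCtrl. These genes were named for their high knockdown folds, and the counts are unscaled and come from lists of unknown depth. The intervals therefore give no comparison between transfections.

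ZNF146, which encodes a protein made up almost only of zinc fingers, and ZNF565 share 1 divergent start region, so their peak is a single locus. It was 1428 bp wide at fold 13.4 in siREXO4 (75 fragments, 59.0 to 94.0), 1192 bp at fold 21.9 in siRNaseH1 (84 fragments, 67.0 to 104) and 424 bp at fold 5.77 in siCtrl (15 fragments, 8.4 to 24.7). ZNF787 had no siCtrl peak. Its start held a siREXO4 peak of 1835 bp at fold 14.9 (65 fragments, 50.2 to 82.8) and a siRNaseH1 peak of 1787 bp at fold 21.1 (73 fragments, 57.2 to 91.8). The ZNF787 peaks were among the widest at any of these genes.

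Further genes carried a start peak in both knockdown lists and no siCtrl peak there. ZNF653 had fold 9.32 in siREXO4 and 12.4 in siRNaseH1, beside the neighbouring gene ECSIT. ZNF561 had 8.65 and 13, ZNF77 had 11.1 and 10.7, ZNF57 had 7.10 and 11.6, ZNF823 had 10.9 and 7.80, and ZNF562 had 8.78 and 4.72 in the same order. ZNF274, whose protein binds the 3' ends of other zinc finger genes and recruits SETDB1 there, had 6.65 and 8.4 at its own start. ZNF561 and ZNF562 both lie in cluster 1 and ZNF653 and ZNF823 in cluster 2 of the clusters described below, and ZNF57 and ZNF77 are near neighbours outside them.

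**Figure D2:**
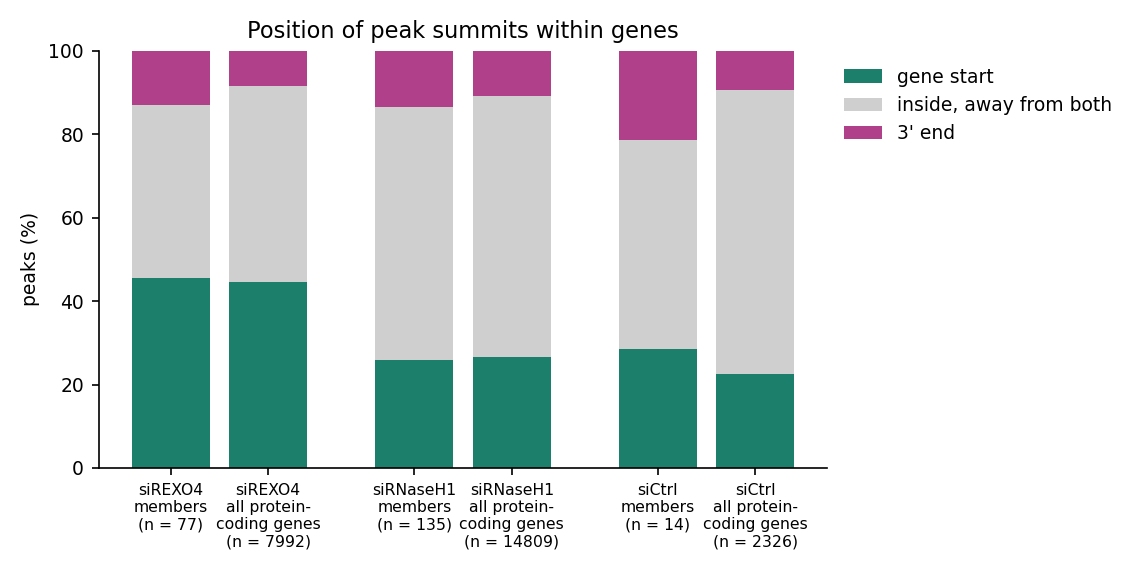
Share of peaks (vertical axis, %) whose summit lay at a gene start, at the 3' end or elsewhere in the gene, for chromosome 19 ZNF genes (members) and all protein-coding genes, by list. Start peaks made up 45.5% of siREXO4, 25.9% of siRNaseH1 and 28.6% of siCtrl peaks at the ZNF genes.

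Position was read in the 219 genes with a known strand, with the start and the 3' end each taken as 2 kb on either side. At the start, 36 genes held a siREXO4 summit (16.4%, background 23.0%), 31 a siRNaseH1 summit (14.2%, background 24.2%) and 5 a siCtrl summit (2.28%, background 3.64%). At the 3' end, 8 genes held a siREXO4 summit (3.65%, background 5.67%), 16 a siRNaseH1 summit (7.31%, background 11.0%) and 3 a siCtrl summit (1.37%, background 1.70%). Inside the gene and away from both ends the counts were 24 in siREXO4 (11.0%, background 16.3%), 40 in siRNaseH1 (18.3%, background 25.6%) and 7 in siCtrl (3.20%, background 8.24%). No position class exceeded its background.

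Among the peaks themselves the distribution over the gene was close to that of all protein-coding genes. Of 77 siREXO4 peaks, 45.5% lay at the start, 13% at the 3' end and 41.6% elsewhere, against 44.5%, 8.42% and 47.1%. Of 135 siRNaseH1 peaks, 25.9% lay at the start, 13.3% at the 3' end and 60.7% elsewhere, against 26.5%, 10.8% and 62.7%. The 14 siCtrl peaks divided into 4 at the start, 3 at the 3' end and 7 elsewhere. The share at the start was higher in siREXO4 than in siRNaseH1, which held 35 start peaks each but 82 peaks elsewhere in siRNaseH1 and 32 in siREXO4. Divided into 3 equal parts of the gene, the siREXO4 peaks elsewhere numbered 8, 8 and 16 from the 5' to the 3' side. The last part held 50.0%, against 36.2% at all protein-coding genes. The siRNaseH1 ones numbered 26, 28 and 28. With 32 such siREXO4 peaks the counts are small, and no interval was computed. Among the 16 are peaks at 81.6%, 84.2% and 90.6% of the length of 1 gene, ZNF791.

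The lists met most often at starts. There, 22 of 35 siREXO4 peaks were overlapped by siRNaseH1 and 22 of 35 siRNaseH1 peaks by siREXO4 (62.9% each), against 77.3% and 69.5% at all protein-coding genes. At the 3' end, 5 of 10 siREXO4 peaks and 5 of 18 siRNaseH1 peaks (50.0% and 27.8%) overlapped the other knockdown, against 68.9% and 28.0% at all protein-coding genes. Elsewhere, 11 of 32 siREXO4 peaks (34.4%) and 11 of 82 siRNaseH1 peaks (13.4%) did, against 43.7% and 17.7%. Median folds at the start were 6.23 in siREXO4, 5.71 in siRNaseH1 and 5.97 in siCtrl, those at the 3' end were 5.17, 5.15 and 4.69, and those elsewhere were 4.15, 5.01 and 4.63.

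The highest folds at the 3' end were 6.23 in siREXO4, 6.98 in siRNaseH1 and 5.25 in siCtrl, below the highest at starts. ZNF57 held the strongest siRNaseH1 one (2918693 to 2919019, fold 6.98), over a siREXO4 peak of fold 4.35. ZNF567 was marked at its 3' end in all 3 lists, with fold 6.23 in siREXO4, 5.37 in siRNaseH1 and 4.69 in siCtrl. Its start carried fold 10.4 in siREXO4 and 8.69 in siRNaseH1 and no siCtrl peak. The 3' end peaks of ZNF628 (fold 6.11 in siREXO4 and 6.40 in siRNaseH1) also lie beside the gene NAT14 and cannot be assigned to either gene.

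**Figure D3:**
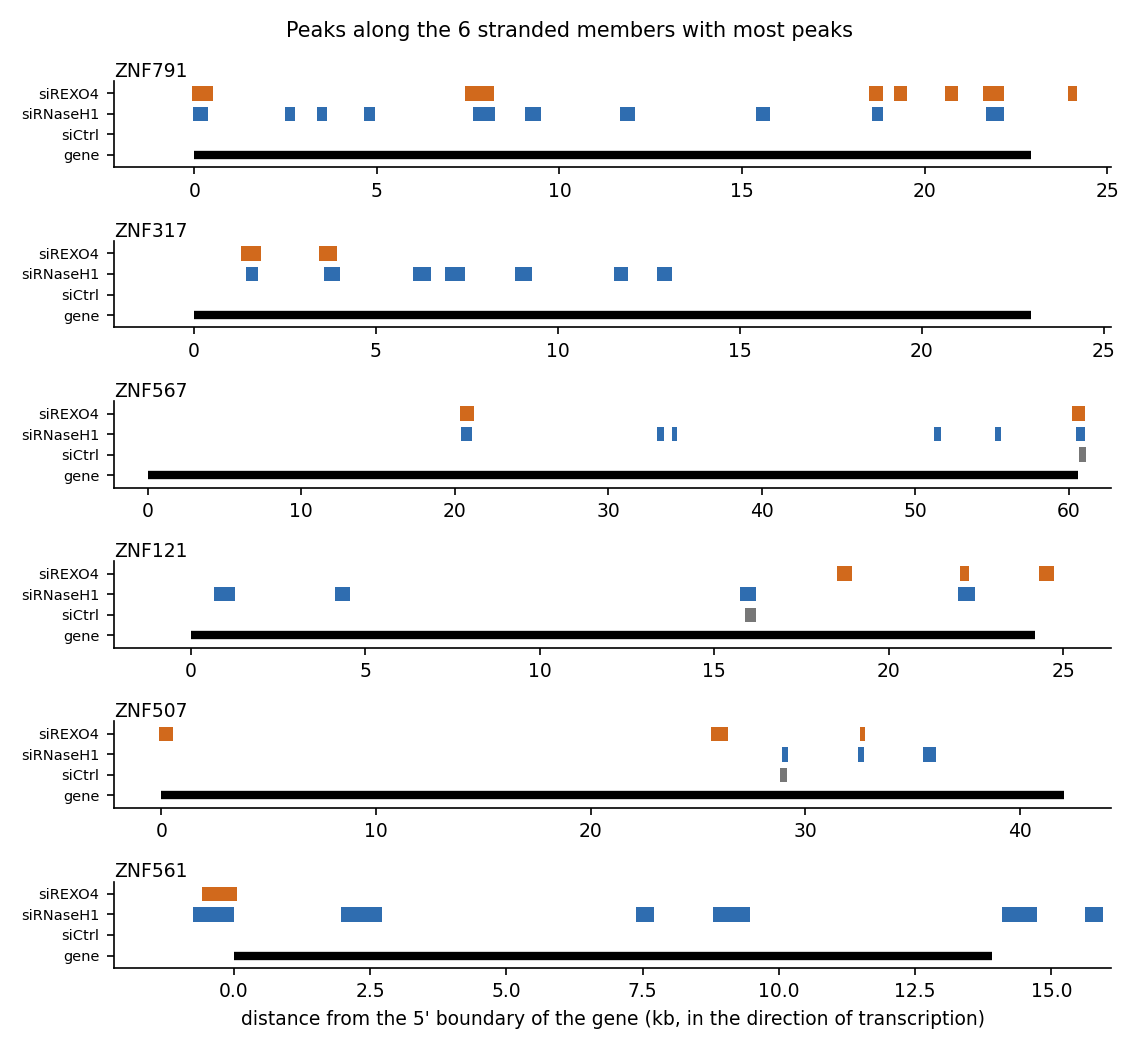
Peaks along the 6 genes with a known strand and the most peaks over the 3 lists (horizontal axis, kb from the 5' boundary in the direction of transcription), with siREXO4, siRNaseH1 and siCtrl on separate rows above the gene. ZNF791 carries 7 siREXO4 and 10 siRNaseH1 peaks and no siCtrl peak.

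Several genes carried rows of peaks. In siREXO4, 35 genes held 1 peak, 15 held 2 and 6 held 3 or more. In siRNaseH1, 30 held 1, 16 held 2 and 19 held 3 or more. The 15 siCtrl genes held 1 each. Peaks per gene were not counted over all protein-coding genes, so such rows are not shown to be particular to the ZNF genes. At all protein-coding genes, too, peaks away from both ends were more numerous in siRNaseH1 (9283) than in siREXO4 (3761). ZNF791 had the most, 7 siREXO4 peaks (best fold 6.71) and 10 siRNaseH1 peaks (best fold 6.34), spread from its start to its 3' end. Its start peak is shared with ZNF490, and the noncoding gene LOC105372279 overlaps its 3' end. ZNF317 held 2 siREXO4 peaks, of fold 6.23 and 8.72, and 7 siRNaseH1 peaks, of fold 3.56 to 10.3. ZNF561 held 1 siREXO4 peak and 6 siRNaseH1 peaks, and ZNF823 held 1 and 5. In ZNF561 and ZNF823 the siREXO4 peak lay at the start. In ZNF317 the siREXO4 peak of fold 8.72 lay inside the gene, 3724 bp from the start, where a siRNaseH1 peak overlapped it. In these 3 genes further siRNaseH1 peaks lay deeper in the gene than any siREXO4 peak.

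The 15 genes with a siCtrl peak shared 14 peaks. Of those, 6 were overlapped in both knockdown lists, 2 in siRNaseH1 alone, 0 in siREXO4 alone and 6 in neither. At all protein-coding genes 1145 of 2819 siCtrl peaks were in neither, a similar part. At ZNF708, in the pericentromeric cluster, the 3 lists marked 1 intragenic locus, with fold 4.93 in siREXO4 (12 fragments, 6.20 to 21.0), 4.44 in siRNaseH1 (13 fragments, 6.92 to 22.2) and 6.75 in siCtrl (17 fragments, 9.90 to 27.2). The 3 intervals overlapped. At ZNF121 a siRNaseH1 peak of fold 10.6 lay over the siCtrl peak of fold 6.59, with no siREXO4 peak there. ZNF507 likewise had fold 5.62 in siRNaseH1 and 4.63 in siCtrl. The siCtrl peaks found in neither knockdown had low folds, led by ZNF814 (5.44), ZNF154 (5.25), ZNF607 (4.68), ZNF254 (4.29) and ZNF653 (4.14). ZNF154, whose promoter is known for its methylation in tumours, held this siCtrl peak at its 3' end and a siREXO4 peak of fold 4.28 at its start.

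**Figure D4:**
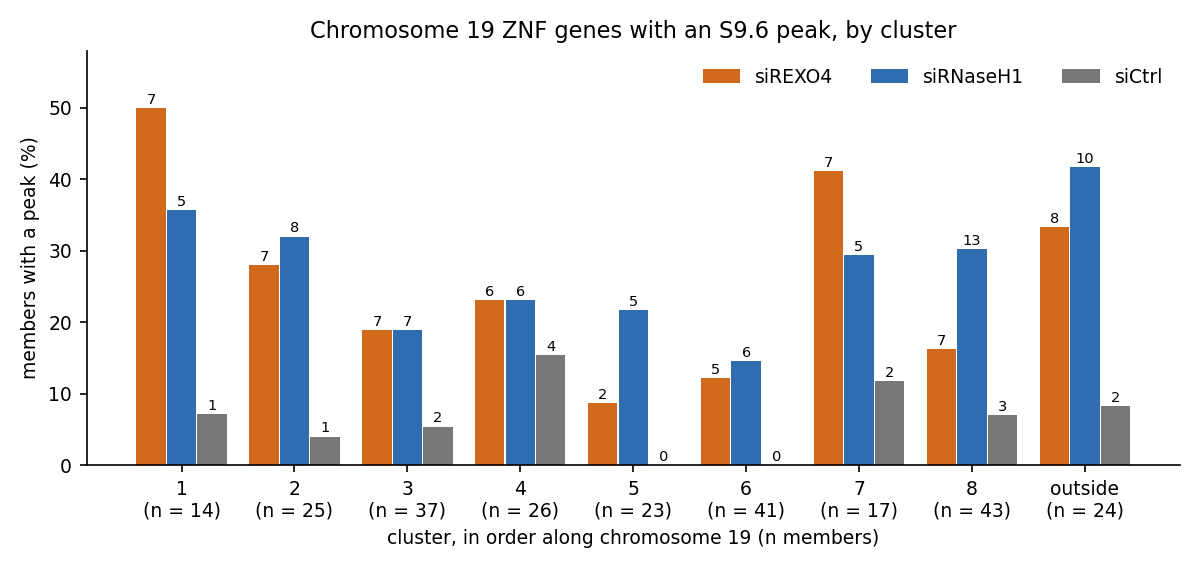
Share of the ZNF genes of each cluster (members) with a peak (vertical axis, %), by list, with the number of genes above each bar; clusters run from the short arm to the end of the long arm. Cluster 1 has the highest siREXO4 share at 50.0%, and cluster 5 the lowest at 8.70%.

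Genes were grouped into clusters where neighbours lay within 500 kb, and 8 clusters of at least 10 genes held 226 of the 250. Cluster 1 (8.5 to 9.8 Mb) held 14 genes, of which 7 had a siREXO4 peak (50.0%), 5 a siRNaseH1 peak (35.7%) and 1 a siCtrl peak, with ZNF562, ZNF561 and ZNF121 leading the 3 lists. Cluster 2 (11.5 to 12.6 Mb) held 25 genes, 7 with a siREXO4 peak, 8 with a siRNaseH1 peak and 1 with a siCtrl peak, led by ZNF823 in siREXO4 and by ZNF653 in the other lists. Cluster 3 (19.7 to 24.1 Mb), next to the centromere, held 37 genes of the primate-expanded ZNF91 group among others, 7 with a siREXO4 peak (18.9%), 7 with a siRNaseH1 peak and 2 with a siCtrl peak. ZNF91, a repressor of SVA elements, carried there 2 siREXO4 peaks of fold 5.73 and 6.23 and 3 siRNaseH1 peaks of up to 8.60. None of them lay at its start. ZNF429 shared the highest siREXO4 fold of this cluster, 6.23, at an intragenic peak 30094 bp from its nearest start.

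Cluster 4 (36.2 to 37.8 Mb) held 26 genes, 6 with a siREXO4 peak, 6 with a siRNaseH1 peak and 4 with a siCtrl peak, the highest siCtrl share (15.4%). Cluster 5 (43.5 to 44.5 Mb) held 23 genes, 2 with a siREXO4 peak (8.70%), 5 with a siRNaseH1 peak (21.7%) and 0 with a siCtrl peak. Its leading peaks were low, at ZNF226 in siREXO4 (fold 4.56) and at the 3' end of ZNF227 in siRNaseH1 (fold 5.72). Cluster 6 (51.6 to 53.6 Mb) held 41 genes, 5 with a siREXO4 peak (12.2%), 6 with a siRNaseH1 peak (14.6%) and 0 with a siCtrl peak. ZNF175, known as a repressor of HIV transcription in macrophages, led its siREXO4 peaks at fold 5.81, and ZNF160 its siRNaseH1 peaks at 6.83. Clusters 5 and 6 held no peak of fold 10 or more, and neither did clusters 3 and 8.

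Cluster 7 (55.5 to 56.7 Mb) held 17 genes with a median length of 11.6 kb, 7 with a siREXO4 peak (41.2%), 5 with a siRNaseH1 peak (29.4%) and 2 with a siCtrl peak (11.8%). It contains ZNF581, ZNF628 and ZNF787. It is also the cluster with the most other protein-coding genes between its members, 25. Of these, 6 held a siREXO4 peak and 6 a siRNaseH1 peak (24% each). The other genes in the clusters included zinc finger genes with other symbols. Examples are ZFP28 in cluster 7, ZSCAN4 in cluster 8, and ZFP14, ZFP82 and ZFP30 in cluster 4. Clusters 1, 5, 6 and 8 held 14, 10, 14 and 13 other protein-coding genes. Their siREXO4 shares were 14.3%, 10.0%, 21.4% and 23.1%, and their siRNaseH1 shares 7.14%, 30.0%, 21.4% and 15.4%. Clusters 2, 3 and 4 held 4, 2 and 4, with a peak at 1, 0 and 0 in each knockdown list. All these shares lay below the 43.9% and 45.5% of the other chromosome 19 protein-coding genes. The cluster shares of the ZNF genes did so too, except the siREXO4 share of cluster 1 (50.0%). Cluster 8 (57.2 to 58.5 Mb), near the end of the long arm, held 43 genes, 7 with a siREXO4 peak (16.3%), 13 with a siRNaseH1 peak (30.2%) and 3 with a siCtrl peak, led by ZNF274 in siREXO4 (6.65), ZNF548 in siRNaseH1 (8.79) and ZNF814 in siCtrl (5.44). Of the 24 genes outside clusters, 8 held a siREXO4 peak, 10 a siRNaseH1 peak and 2 a siCtrl peak. With 14 to 43 genes per cluster the counts are small, and no test was made between clusters.

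**Figure D5:**
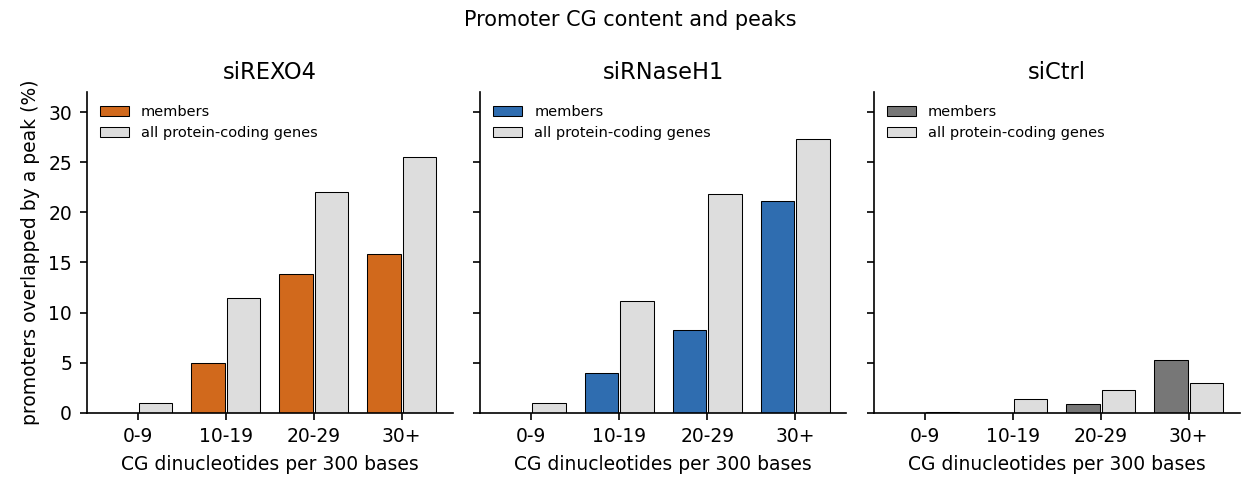
Share of RefSeq promoters that overlap a peak (vertical axis, %) by number of CG dinucleotides in the 300 bases, for chromosome 19 ZNF genes (members, coloured) and all protein-coding genes (pale), 1 panel per list. At 20 to 29 CG the ZNF promoters reach 13.8% in siREXO4 and 8.26% in siRNaseH1, against 22% and 21.8%.

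Promoters of the ZNF genes that overlapped a peak were richer in CG than those that did not. The 30 with a peak in any list had a median of 23 CG and 62.2% GC, against 20.0 CG and 59.3% GC for the 241 without. The same order held at all protein-coding promoters, with 30.0 and 17.0 CG. At like CG number the shares of ZNF promoters in a knockdown peak were below those of all promoters, but the counts are small. With 10 to 19 CG, 5.00% of 100 ZNF promoters held part of a siREXO4 peak and 4.00% part of a siRNaseH1 peak, against 11.5% and 11.2% of all. With 30 or more CG, the shares were 15.8% (interval 7.44 to 30.4%) and 21.1% (11.1 to 36.3%) of 38 promoters. Those intervals cover the 25.5% and 27.3% of all promoters. In siCtrl the order differed in that class, with 2 of 38 ZNF promoters (5.26%) against 2.97% of all. The GC box GGGCGG, searched on both strands, was present in 64.9% of ZNF promoters and in 56.3% of all protein-coding promoters. It was present in 73.3% of the ZNF promoters with a peak and 63.9% of those without.

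Zinc finger genes of chromosome 19 with other symbols, 18 in all (ZFP, ZSCAN, ZBTB, ZIK, ZIM and PEG3), held a peak in 3 genes in siREXO4 (16.7%, interval 5.84 to 39.2%), 3 in siRNaseH1 (16.7%) and 0 in siCtrl (up to 17.6%). The background was 33.7%, 39.2% and 12%, and each interval reaches it. They were ZBTB7A, a repressor of fetal globin genes (fold 5.02 in siREXO4 and 6.97 in siRNaseH1), ZBTB32 (5.67 and 4.87), ZSCAN22 (8.34 in siREXO4) and ZSCAN5A (5.51 in siRNaseH1). Also counted were 20 genes for heterochromatin and histone methylation, among them the KRAB partners TRIM28 and SETDB1. Of these, 13 held a siREXO4 peak (65.0%, background 33.7%), 16 a siRNaseH1 peak (80.0%, background 39.2%) and 5 a siCtrl peak (25%, background 12%). The intervals were 43.3 to 81.9%, 58.4 to 91.9% and 11.2 to 46.9%, and the siCtrl one covers its background. NSD2, an H3K36 methyltransferase gene outside the KRAB pathway (fold 9.73 in siREXO4 and 8.61 in siRNaseH1), MORC2, a partner of the HUSH silencing complex (8.97 and 6.94), DNMT1, the maintenance DNA methyltransferase gene (8.15 and 6.26), and SETDB1 (6.03 and 8.10) led by fold. TRIM28, the KRAB corepressor gene, ATRX and EHMT2 held none. These 20 genes are longer than the ZNF genes, with a median of 46.4 kb, and the part of length in these counts was not tested.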

How the data were processed

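DRIP-seq peak lists for siREXO4, siRNaseH1 and siCtrl were analysed, each called on merged S9.6 libraries per the labels. Per the submitters' processing notes, MACS2 2.1.0.20150731, deepTools 3.5.1, HISAT2 2.2.1, SAMtools 1.17, Trim Galore 0.6.10, Cufflinks and the hg38 build were used, with no roles stated. Which control library was used, and how duplicates were handled, was not given in the sources used here. Deposited values are a fold (ratio of summit signal to local background), −log10 p and −log10 q, a score, and the summit offset, all the authors' own. The members and gene lists were chosen with earlier results of these data known.

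A gene held a peak that overlapped it or its 2 kb flanks by at least 1 bp. Strand and starts came from RefSeq promoters, and 31 genes without a strand have no position class. A summit counted as at the start within 2 kb of a RefSeq start or the 5' boundary, or otherwise at the 3' end within 2 kb of it. Fragments at a summit were solved from fold and p, whole within 0.001 below a −log10 p of 300. Named genes were those in all 3 lists, the highest folds per list, per cluster and at the 3' end, the best-ranked pairs free of siCtrl, those with most peaks, siCtrl peaks in neither knockdown and leading pathway genes. SciPy 1.17.1, pandas 2.3.3, NumPy 2.4.6 and Matplotlib 3.10.9 were run under Python 3.11.15, and the code was tested on simulated data. Input, IgG and single-library signals, and protein features, were not analysed here.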

Additional observations from a re-analysis of the deposited data

How the results depend on the processing

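Of 116 values recomputed under the alternatives, 84 stayed within their limits and 32 moved. With peaks of fold 5 or more, 36 genes held a siREXO4 peak, 41 a siRNaseH1 peak and 8 a siCtrl peak; 33 and 39 held one free of siCtrl, 14 held such a pair, and the siREXO4 start share was 59.0%. With −log10 q of 5 or more, 7 genes held a siCtrl peak, 17 held a pair free of siCtrl, the siREXO4 start share was 61.9% and the siCtrl 3' end share 0%. With lists of equal length, 28 genes held a siREXO4 peak and 19 a siRNaseH1 peak, so the order of the knockdowns turned round; 25 and 15 held one free of siCtrl, 13 a pair, start shares were 67.9% and 56.0%, and the siRNaseH1 3' end share was 4.00%. Leaving out peaks beside another gene gave 36 genes with a siREXO4 peak, 34 free of siCtrl and 15 with a pair. The 3' end share depended on the window. Without flanks it was 2.90% in siREXO4, 6.78% in siRNaseH1 and 0% in siCtrl, and with a 1 kb window 6.49% in siREXO4 and 7.41% in siRNaseH1. With a 5 kb window it was 23.4% in siREXO4, and the siRNaseH1 start share was 40.7%. In an alternative chosen after seeing the data, knockdown peaks of fold 5 or more set against the full siCtrl list gave 33 and 39 genes free of siCtrl and 14 with a pair.

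The share of ZNF genes with a peak stayed below that of all protein-coding genes in each list and setting compared. No intervals were computed for these shares. The siCtrl counts were small, with 7 genes (2.80%, all protein-coding genes 4.64%) at −log10 q of 5 or more. No paired analysis was possible because the lists used here each merge 3 libraries; the single libraries were not analysed here, and leaving out a replicate was not run.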
